A study of Rattus norvegicus with 6 samples.

Results

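The 10 genes described here encode nuclear receptors of the liver that respond to lipids or to foreign chemicals, or that set the level at which such receptors work: Rxra, Nr1h3, Nr1h2, Nr1i3, Nr1i2, Pparg, Ppard, Hnf4a, Nr5a2 and Esrra. They were taken by gene symbol from the 32930 gene rows of the expression table, and each symbol stood on 1 row. Nuclear receptors are transcription factors whose ligands are small lipophilic molecules. RXRA, the retinoid X receptor alpha, is the dimer partner that the LXR, PPAR, PXR and CAR receptors need to bind DNA. The LXRs sense oxysterols, the PPARs sense fatty acids, PXR and CAR switch on the enzymes that clear drugs and bile acids, and HNF4A keeps the hepatocyte programme running.

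Liver RNA was sequenced in 3 samples of a high-fat diet group that received 0.5% CMC-Na as vehicle (HFD group). The other 3 samples came from a group that received HTG on top of the diet (HTG group). The diet lasted 12 weeks. In the study's rat design, gavage ran over the later part of the 12 weeks only, and drugs were given in 0.5% CMC-Na. The herbal formula Huazhuo Tiaozhi granule is abbreviated HTG, and the treatment tag of its 3 libraries spells it HCG. No normal-diet library entered the comparison, so all 6 libraries share the high-fat diet. The labels and design text name rats, 6 in all, and the study's sequencing methods name dyslipidaemic C57BL/6 J mice. The submitters' processing notes name the rat build mRatBN7.2, whereas the gene rows carry mouse Ensembl identifiers, so symbols and coordinates follow the table and no build is named for them. Sex, age, rat strain and any batch are not given in the labels, and each library is 1 sample of 1 group. The study's rat experiment used male Wistar rats, but its text does not tie these libraries to them. Values per library are given in the order of replicates 1, 2 and 3, under HFD and then under HTG.

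The authors deposited an estimated count and an FPKM value, which is scaled to transcript length and library depth, for each gene and library. Total counts ran from 50648778 in HTG library 3 to 90563477 in HTG library 2. Among low counts a value of 4 occurred 6450 times, against 2549 times for 3 and 1757 times for 5, and 4 counts were therefore taken as about 1 sequenced fragment, although values of 1 and 2 occurred as well. Mitochondrial rows held 4.97% to 6.45% of the counts in the HFD libraries and 9.31% to 15.2% in the HTG libraries. Counts were scaled between libraries to CPM (counts scaled to a common normalised library total) and compared by edgeR's quasi-likelihood test over the 18455 genes with enough counts, with Benjamini-Hochberg adjustment. All 8 hepatocyte markers were tested, with a summed FPKM between 36580 and 47360 in the 6 libraries. Markers of fat cells summed to at most 0.41 FPKM in any library, and those of the exocrine pancreas to at most 4.54. At an unadjusted p under 0.05 in edgeR, the hepatocyte markers held 1 higher and 2 lower genes. The 9 stellate cell and the 7 cholangiocyte markers held 1 of each, and the 7 endothelial and the 8 lymphocyte and neutrophil markers 0 of either. Of all genes tested, 12.3% were higher and 12.4% lower at this threshold. In edgeR, 0 of these markers passed an adjusted p of 0.05. At that threshold DESeq2 called 1 higher and 2 lower hepatocyte markers and 0 in the other lists of this comparison. Beside these stood 4.83% of its genes that were higher and 6.06% that were lower. HFD library 2 stood apart from the other HFD libraries in Hnf4a and in several lipid genes, and values without it are given for the main results. In bulk tissue, fewer cells of a type and less RNA per cell cannot be told apart.

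Rxra was the receptor gene with the smallest p, and its level in the HTG libraries was 60.3% of that in the HFD libraries. Pparg was at 48.8% of the HFD level, from far fewer reads. The other 8 receptors had 95% intervals that included no difference, although the interval of Hnf4a reached far down. Of the 10 receptors, 0 had an adjusted p under 0.05 in edgeR's quasi-likelihood test, where 0.0108% of all genes tested passed. At an adjusted p under 0.1 in this test stood 1 receptor, Rxra, beside 10.8% of all genes tested. At an unadjusted p under 0.05, 2 receptors were lower in the HTG group, Rxra and Pparg, beside 12.4% of all genes tested, and 0 were higher, beside 12.3%. DESeq2 put the same 2 genes under an adjusted p of 0.05, beside 6.06% of its genes that were lower and 4.83% that were higher at that threshold. The groups did not overlap in CPM in 1 lower receptor, Rxra, and in 0 higher ones, where 15.5% and 16.5% of all genes did so. In FPKM, Rxra, Pparg and Nr5a2 were lower without overlap. The share of all genes without overlap in FPKM was not computed, so this has no background to be read against. Over the 10 receptors the median log2 fold change was -0.22, with 7 fitted lower and 3 higher, beside a median of 0.03 over all genes tested.

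**Figure D1:**
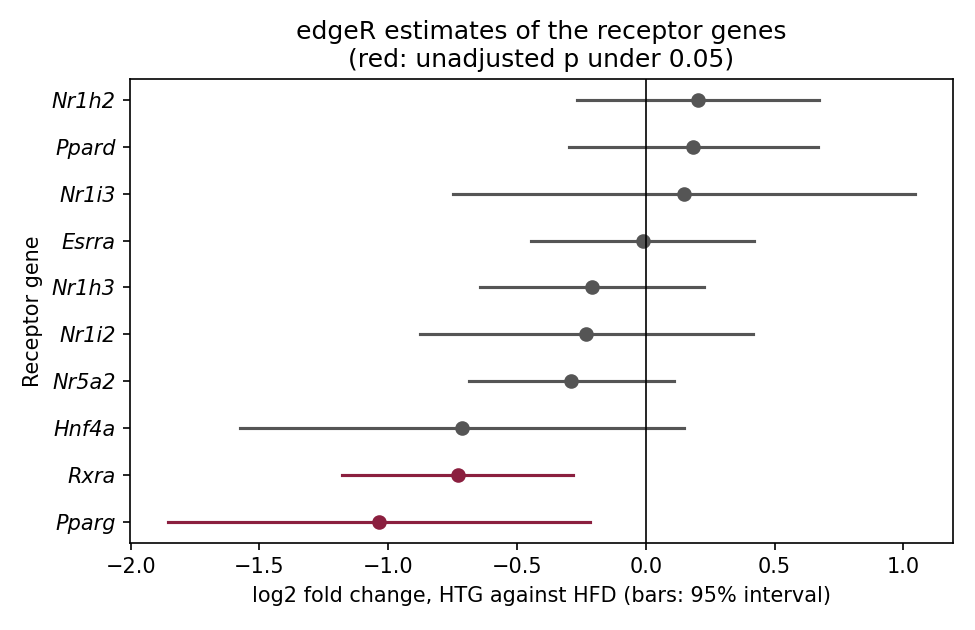
Points give the log2 fold change of each receptor gene in the HTG group against the HFD group (x axis), bars its 95% interval from edgeR's quasi-likelihood fit, and genes are ordered by fold change (y axis). The intervals of Pparg (-1.86 to -0.22) and Rxra (-1.18 to -0.28) lie below 0, and those of the other 8 genes span 0.

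The level per transcript length placed the receptors in an order that is described here from FPKM. In the HFD group, Hnf4a (130 ± 63.0, SD over 3 libraries) and Nr1i3 (119 ± 51.6) were highest, and their ranges overlapped. Rxra followed at 60.7 ± 0.865, and its range met neither neighbour. The gap to Nr1i3 was narrow, with the lowest Nr1i3 library at 61.8 and the highest Rxra library at 61.6. Nr1i2 (37.3 ± 13.1) and Nr1h3 (36.5 ± 4.34) overlapped, Nr1h2 stood alone at 12.4 ± 1.71, and Nr5a2 (7.25 ± 0.711) and Esrra (7.07 ± 0.799) overlapped. Pparg (3.17 ± 0.764) and Ppard (1.14 ± 0.266) closed the order, with ranges that did not meet. In the HTG group, Nr1i3 (131 ± 46.7) and Hnf4a (78.1 ± 16.1) still led and overlapped. Rxra, at 35.5 ± 4.59, now overlapped with Nr1i2 (31.4 ± 5.07), and Pparg (1.52 ± 0.697) with Ppard (1.26 ± 0.215). Among 41 nuclear receptor genes that were listed for the comparison, Nr1i3 ranked 1, Hnf4a 2 and Rxra 4 by mean FPKM over the 6 libraries, Pparg ranked 22 and Ppard 28. The 10 receptors made up 62.0% to 71.5% of the summed FPKM of the 41 genes in the HFD libraries and 54.9% to 62.1% in the HTG libraries, so the ranges met between HFD library 3 and HTG library 1.

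**Figure D2:**
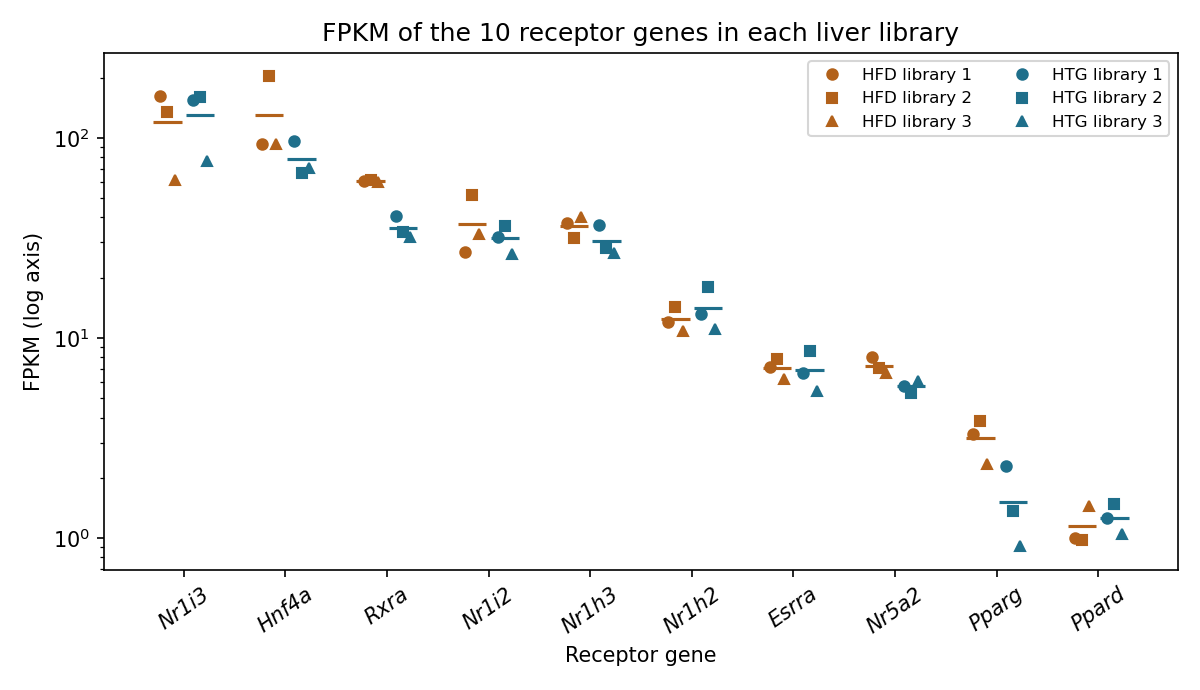
FPKM on a log axis (y axis) of the 10 receptor genes (x axis) in each library, with HFD libraries on the left and HTG libraries on the right of each gene, and bars at the group means. The 3 HFD libraries of Rxra sit together between 59.9 and 61.6, above the 3 HTG libraries between 32.0 and 40.7.

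Rxra (ENSMUSG00000015846, chromosome 2, 27566452 to 27652969, plus strand) is the shared partner of 6 other receptors of the group. Its counts were 25980, 28644 and 27282 under HFD against 21426, 20641 and 10853 under HTG. Its FPKM values were 60.7, 61.6 and 59.9 under HFD against 40.7, 33.9 and 32.0 under HTG. Every HTG library lay below every HFD library. The HFD libraries differed among themselves by a coefficient of variation of 1.43% in FPKM and 7.12% in CPM. Scaled to CPM, the level was 397 ± 28.3 in the HFD group and 239 ± 32.6 in the HTG group (SD, n = 3 per group). The log2 fold change was -0.73 (standard error 0.20, 95% interval -1.18 to -0.28), with an unadjusted p of 0.00536 and an adjusted p of 0.0785 in edgeR's quasi-likelihood test. DESeq2 gave -0.76 and an adjusted p of 0.00904. The estimate lay between -0.88 and -0.65 when any 1 library was left out, and the unadjusted p stayed under 0.05 in each of these fits. It was also -0.73 without the mitochondrial rows. No other row of the table overlaps the gene. Its sister genes on the list of other receptors were lower in level: Rxrb had 7.14 ± 1.85 FPKM in the HFD group and 6.45 ± 1.14 in the HTG group, and Rxrg 2.04 ± 0.365 and 2.42 ± 0.692 (SD over 3 libraries).

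The ratio of Rxra to the summed FPKM of its 6 partners among the 10 genes (Nr1h2, Nr1h3, Nr1i2, Nr1i3, Pparg and Ppard) was 0.251, 0.259 and 0.40 under HFD against 0.17, 0.138 and 0.224 under HTG. The groups did not overlap in this ratio, which was chosen after the data were examined. Its numerator, Rxra, did not overlap by itself either, so the ratio is not a result separate from Rxra. Nr1i3 is the largest term of its denominator and was lowest in library 3 of each group, where the ratio was highest. As a share of the FPKM of all 10 genes, Rxra was 11.9% to 18.95% in the HFD libraries and 9.41% to 12.4% in the HTG libraries, with overlap.

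Nr1h3 and Nr1h2 encode LXR alpha and LXR beta, the oxysterol receptors that switch on cholesterol export and fatty acid synthesis. Nr1h3 (ENSMUSG00000002108, chromosome 2, 91014406 to 91033179, minus strand), the form enriched in liver, had counts of 6393, 5888 and 7319 under HFD against 7723, 6827 and 3598 under HTG. Its FPKM values were 37.4, 31.7 and 40.2 against 36.8, 28.1 and 26.6, and HTG library 1 lay within the HFD range. The log2 fold change was -0.21 (standard error 0.19, 95% interval -0.64 to 0.23, adjusted p = 0.529 in edgeR's quasi-likelihood test). Nr1h2 (ENSMUSG00000060601, chromosome 7, 44199040 to 44203375, minus strand), the widely expressed form, had FPKM values of 12.0, 14.3 and 10.9 under HFD against 13.2, 17.9 and 11.1 under HTG. The groups overlapped, and HTG library 2 held the highest value. The log2 fold change was 0.20 (standard error 0.21, 95% interval -0.27 to 0.67, adjusted p = 0.576 from the same test). The ratio of Nr1h3 to Nr1h2 was 3.12, 2.23 and 3.69 under HFD against 2.78, 1.57 and 2.40 under HTG, so the FPKM of LXR alpha was above that of LXR beta in all 6 libraries and the groups overlapped.

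Nr1i3 and Nr1i2 encode CAR and PXR, the xenobiotic receptors. Nr1i3 (ENSMUSG00000005677, chromosome 1, 171041539 to 171046570, plus strand) varied widely within both groups. Its counts were 48324, 44047 and 19717 under HFD against 57089, 68440 and 18277 under HTG. The FPKM values were 161, 135 and 61.8 against 155, 160.3 and 76.9. Library 3 was the lowest of each group, and the lowest 2 values of all 6 libraries came from different groups. The log2 fold change was 0.15 (standard error 0.39), and its 95% interval, -0.75 to 1.05, was the widest of the 10 genes (adjusted p = 0.847 in edgeR's quasi-likelihood test). The gene Tomm40l, on the opposite strand, overlaps Nr1i3 and had 2143 to 5456 counts, and the sources do not say if reads were counted by strand. Nr1i2 (ENSMUSG00000022809, chromosome 16, 38068685 to 38115186, minus strand) had FPKM values of 26.8, 51.9 and 33.0 under HFD against 31.8, 36.3 and 26.2 under HTG. HFD library 2 was highest, and the other 5 libraries lay between 26.2 and 36.3. Its fold change on the log2 scale was -0.23 (standard error 0.28, 95% interval -0.88 to 0.42, adjusted p = 0.65 in edgeR's quasi-likelihood test), and 0.15 without HFD library 2. The ratio of Nr1i3 to Nr1i2 ran from 1.87 to 6.01 in the HFD libraries and from 2.94 to 4.87 in the HTG libraries.

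**Figure D3:**
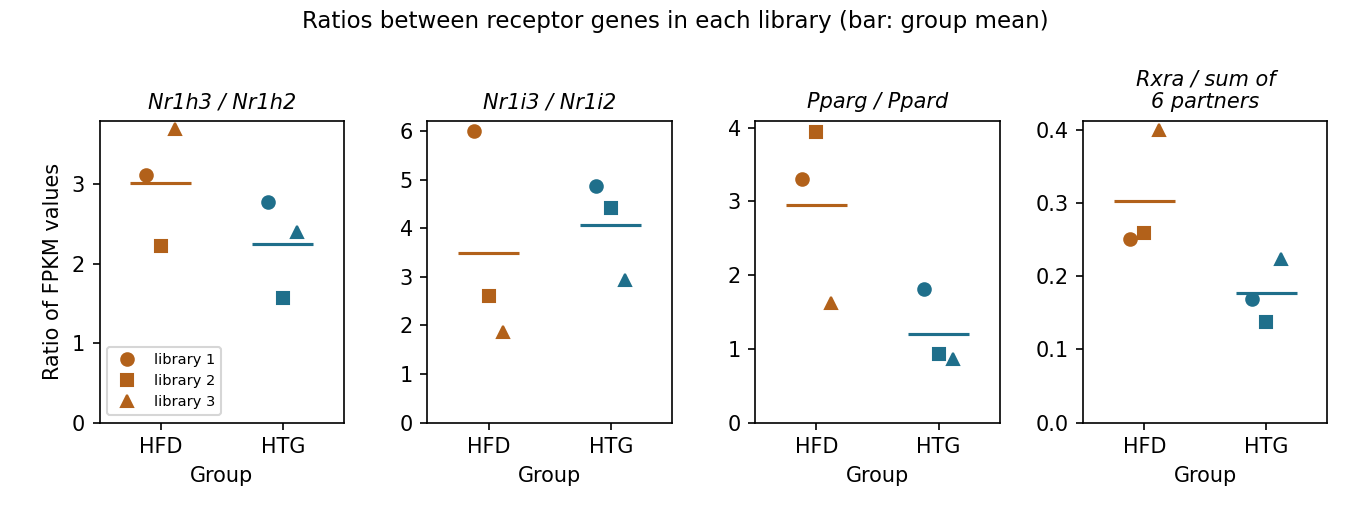
Ratios of FPKM values between receptor genes (y axes, each from 0) in the 3 libraries of each group (x axis), with bars at the group means. The groups overlap in the first 3 ratios, and in the ratio of Rxra to its 6 partners the HFD libraries lie between 0.251 and 0.40 and the HTG libraries between 0.138 and 0.224.

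Pparg and Ppard encode the fatty acid receptors PPAR gamma and PPAR delta. PPAR gamma is best known from fat cells and is induced in fatty liver, where it promotes lipid storage. Pparg (ENSMUSG00000000440, chromosome 6, 115337912 to 115467360, plus strand) had counts of 666, 844 and 504 under HFD against 562, 391 and 146 under HTG. The FPKM values were 3.31, 3.86 and 2.35 against 2.28, 1.37 and 0.91, so that in FPKM every HTG library was below every HFD library. In CPM the groups met, with 7.02 in HFD library 3 and 7.21 in HTG library 1. HTG library 3 rested on about 36.5 fragments if 4 counts are 1 fragment, a counting error of 16.6%. The fitted log2 fold change was -1.04 (standard error 0.36, 95% interval -1.86 to -0.22), with an unadjusted p of 0.0192 and an adjusted p of 0.126 in edgeR's quasi-likelihood test. DESeq2 gave -1.06 and an adjusted p of 0.0416. Without HFD library 2 the log2 fold change was -0.81 (adjusted p = 0.28), without HTG library 2 it was -0.92 (adjusted p = 0.336) and without HTG library 3 it was -0.80 (adjusted p = 0.302), with unadjusted p values of 0.0686, 0.0649 and 0.063 from edgeR's quasi-likelihood test.

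Macrophages also express Pparg and Nr1h3, and the 9 markers of Kupffer cells and macrophages had a summed FPKM of 498 to 952 in the HFD libraries and of 331 to 645 in the HTG libraries. Of these 9 markers 8 were fitted lower, 3 of them at an unadjusted p under 0.05 in edgeR (Adgre1, Cd5l and Lyz2) beside 12.4% of all genes tested. DESeq2 called the same 3 as lower at an adjusted p under 0.05, beside 6.06% of its genes. The median log2 fold change of the 9 markers was -0.45, and -0.78 without HFD library 2, and their part in the Pparg values was not tested. Per library the summed FPKM of these markers was 952, 498 and 841 under HFD against 645, 578 and 331 under HTG. Within its group the sum was lowest in HFD library 2, which had the most Pparg, and in HTG library 3, which had the least. The fat cell marker Adipoq was at 0 in every library.

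Ppard (ENSMUSG00000002250, chromosome 17, 28451674 to 28520448, plus strand), the ubiquitous form, had counts of 515, 543 and 789 under HFD against 794, 1076 and 427 under HTG. The FPKM values were 1.0, 0.98 and 1.45 against 1.26, 1.48 and 1.05, and the groups overlapped. Its fold change on the log2 scale was 0.18 (standard error 0.21, 95% interval -0.30 to 0.67, adjusted p = 0.625 in edgeR's quasi-likelihood test). The ratio of Pparg to Ppard was 3.31, 3.94 and 1.62 under HFD against 1.81, 0.926 and 0.867 under HTG. HFD library 3 lay below HTG library 1, so the groups overlapped.

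Hnf4a, Nr5a2 and Esrra do not need RXRA. HNF4A drives apolipoprotein, clotting factor and gluconeogenic genes, LRH-1 (Nr5a2) acts on bile acid and cholesterol genes, and ERR alpha (Esrra) on genes of mitochondrial respiration. Hnf4a (ENSMUSG00000017950, chromosome 2, 163348728 to 163401030, plus strand) had counts of 30669, 72161 and 32623 under HFD against 38900, 31168 and 18458 under HTG. The FPKM values were 93.5, 203 and 93.5 against 96.5, 66.8 and 71.0. HFD library 2 held more than any other library, and HTG library 1 lay above the other HFD libraries. The fitted log2 fold change was -0.71 (standard error 0.38, 95% interval -1.57 to 0.15, adjusted p = 0.282 in edgeR's quasi-likelihood test), and without HFD library 2 it was -0.17 (adjusted p = 0.766). It was -0.93 without HFD library 3, with an unadjusted p of 0.049 and an adjusted p of 0.242 from the same test. The antisense RNA Hnf4aos, which overlaps the gene, had 105 to 679 counts.

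**Figure D4:**
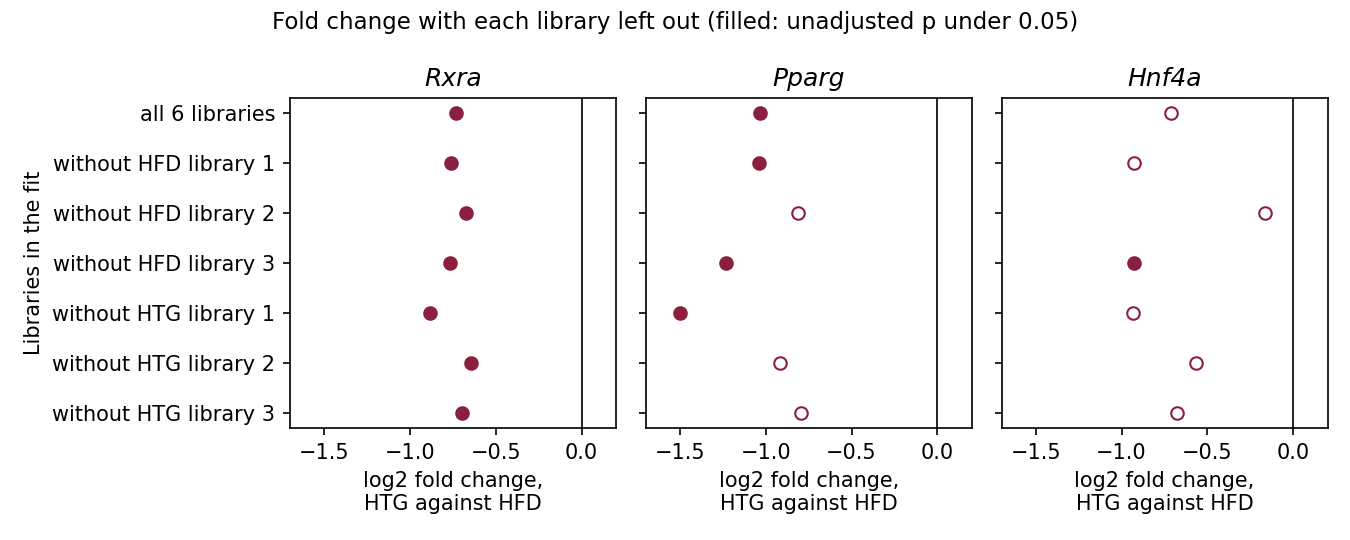
Log2 fold change of Rxra, Pparg and Hnf4a in the HTG group against the HFD group (x axes) with all 6 libraries and with each library left out in turn (y axis), where filled points have an unadjusted p under 0.05 in edgeR's quasi-likelihood test. Rxra is filled in all 7 fits, Pparg is open in 3, and Hnf4a moves to -0.17 without HFD library 2.

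Nr5a2 (ENSMUSG00000026398, chromosome 1, 136770309 to 136888186, minus strand) had FPKM values of 8.04, 7.05 and 6.66 under HFD against 5.78, 5.28 and 6.10 under HTG, which did not overlap. In CPM they did, with 47.3, 46.0 and 39.6 against 36.6, 30.9 and 41.4. Its fold change on the log2 scale was -0.29 (standard error 0.17, 95% interval -0.69 to 0.11, adjusted p = 0.344 in edgeR's quasi-likelihood test). Esrra (ENSMUSG00000024955, chromosome 19, 6888345 to 6899208, minus strand) had FPKM values of 7.16, 7.82 and 6.23 against 6.70, 8.56 and 5.44, with the HTG libraries on both sides of the HFD range. The fitted log2 fold change was -0.01 (standard error 0.19, 95% interval -0.44 to 0.42, adjusted p = 0.98 in edgeR's quasi-likelihood test). The end of the opposite-strand gene Trmt112 overlaps Esrra. Trmt112 had 984 to 2407 counts, beside 1293 to 3657 for Esrra.

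Genes known to respond to these receptors were read from lists, by their counts at an unadjusted p under 0.05 and beside the 12.3% of all genes tested that were higher and the 12.4% that were lower. The lists share some genes and are not independent. Apom, for example, was counted as lower among both the HNF4A and the NR5A2 targets. In edgeR's quasi-likelihood test 10.8% of all genes tested had an adjusted p under 0.1, so values just under 0.1 were common. In each list, 0 genes had an adjusted p under 0.05 in this test, which called 2 genes in all. DESeq2 called more, beside the 4.83% of its genes that were higher and the 6.06% that were lower: 7 lower and 1 higher among the HNF4A targets, 6 lower CAR and PXR targets, 3 lower ESRRA targets, 2 higher and 1 lower LXR targets, 1 of each among the NR5A2 targets and 1 lower in each of the PPARG, PPARD and oxysterol lists. It also called 3 of the other nuclear receptors as higher and 0 coregulators. Of 12 LXR targets 2 were higher, Abcg5 and Abcg8, the paired transporters that export cholesterol into bile, and 1 was lower, Smpdl3a. Abcg5 was at 86.5 ± 19.1 CPM in the HFD group and 249 ± 145 in the HTG group (SD over 3 libraries), a log2 fold change of 1.52 (adjusted p = 0.0704), and Abcg8 at 60.0 ± 13.3 and 126 ± 69.3, a log2 fold change of 1.07 (adjusted p = 0.126, both edgeR). HTG library 2 held the highest count of both, 40665 for Abcg5 and 20086 for Abcg8, and without it the log2 fold changes were 0.93 and 0.52. Then 1 of the 12 was higher, as without HFD library 2, which left 2 lower. Smpdl3a was at 36.1 ± 2.58 and 13.2 ± 4.24 CPM. The list median of 0.07 was -0.11 without HFD library 2. Of the 6 genes of oxysterol synthesis, which make or remove LXR ligands, 5 were tested and 1 was lower: Cyp39a1, an oxysterol hydroxylase, at 40.04 ± 18.02 CPM in the HFD group and 5.36 ± 2.91 in the HTG group (log2 fold change -2.90, adjusted p = 0.0538 in edgeR). Cyp27a1 was at 560 ± 61.2 and 486 ± 55.6 CPM, and Ch25h had at most 15 counts in any library. Without HTG library 3 the counts of this list were 1 higher and 2 lower.

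Of the 18 CAR and PXR targets tested, 8 were lower and 0 were higher, with a list median of -0.63. Cyp2c29 was at 1104 ± 405 CPM in the HFD group and 243 ± 166 in the HTG group (log2 fold change -2.18, adjusted p = 0.0613 in edgeR). The classic CAR target Cyp2b10 had few counts, 101, 255 and 105 under HFD against 85, 45 and 0 under HTG. The classic PXR target Cyp3a11 was at 952 ± 240 and 638 ± 383 CPM (log2 fold change -0.58, adjusted p = 0.509 in edgeR), with HTG library 3 at 9214 counts and the other HTG libraries at 64574 and 86795. Without HTG library 3 its log2 fold change was -0.14. Leaving out 1 library left 6 to 9 of the 18 lower. Por, Alas1 and Ugt1a1, which supply electrons, haem and glucuronidation, were among the 8.

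Of the 9 PPARG targets tested, 3 were lower (Cd36, Plin2 and Fitm2) and 1 was higher (Fitm1), and their median of -1.03 was 0.17 without HFD library 2. Plin2, a lipid droplet coat gene, had 16072, 79073 and 20287 counts under HFD against 19276, 8313 and 4961 under HTG, and Cidec, another droplet gene, 98, 971 and 113 against 164, 154 and 74. HFD library 2 was thus the highest for both, while HFD libraries 1 and 3 lay near HTG library 1. Without HFD library 2 the log2 fold change of Plin2 was -0.83 in place of -1.96, and that of Cidec 0.22 in place of -1.74. The number lower was 1 without HFD library 2 and 0 without HTG library 2 or 3, and the number higher was 0 without HFD library 1, HFD library 3 or HTG library 1. The fatty acid transporter Cd36 was at 57.3 ± 15.6 and 32.3 ± 13.5 CPM. Of 8 PPARD targets, 8 were fitted lower and 3 passed, Pdk4, Plin2 and Cpt1a, with Plin2 on both lists. Ppard itself was fitted higher (log2 fold change 0.18) and Ppara lower (-0.80). Which receptor these genes followed was not tested. Pdk4 had 179, 1717 and 442 counts against 249, 47 and 93, and Cpt1a was at 442 ± 148 and 193 ± 43.0 CPM (log2 fold change -1.19, adjusted p = 0.0654 in edgeR). Angptl4 was at 148 ± 101 and 67.6 ± 46.0 CPM. Without HFD library 2 the log2 fold change of Angptl4 was -0.43 in place of -1.13, and that of Pdk4 -1.23 in place of -2.61. The 3 became 1 without HFD library 2 or HTG library 2 and 6 without HTG library 1, and the list median of -0.80 was -0.41 without HFD library 2.

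Of 19 HNF4A targets, 8 were lower and 1 was higher, and the median was -0.67 (-0.46 without HFD library 2). Apoc3, which encodes an apolipoprotein of triglyceride-rich particles, was the higher one, at 756 ± 116 CPM in the HFD group and 1501 ± 131 in the HTG group (log2 fold change 0.99, adjusted p = 0.0612 in edgeR). Apoa4, another apolipoprotein gene, was at 968 ± 91.1 and 460 ± 75.1 CPM (log2 fold change -1.07, adjusted p = 0.0582 in edgeR). The transport protein gene Ttr was at 5090 ± 23.5 and 5299 ± 632 CPM. Leaving out 1 library left 7 to 10 lower. Of the 9 NR5A2 targets tested, 2 were lower and 1 was higher, Nr0b2, which encodes SHP, a receptor without a DNA-binding domain that represses LRH-1. Nr0b2 had 1754, 1533 and 1445 counts under HFD against 3136, 4605 and 2028 under HTG, at 22.95 ± 2.82 and 43.6 ± 3.44 CPM without overlap (log2 fold change 0.92, adjusted p = 0.055 in edgeR). Cyp8b1, the sterol 12-alpha-hydroxylase of bile acid synthesis, had 15360, 46925 and 27777 counts against 20333, 3855 and 828 (log2 fold change -2.05, adjusted p = 0.207 in edgeR), and without HTG library 1 its log2 fold change was -3.97. The 2 lower became 4 without HTG library 1 and 1 without HFD library 3 or HTG library 3, and the 1 higher became 2 without HFD library 3. Of 14 ESRRA targets, 7 were lower and 0 were higher, with a median of -0.52. Atp5b, a subunit of ATP synthase, was at 938 ± 127 and 362 ± 125 CPM (log2 fold change -1.37, adjusted p = 0.0585 in edgeR), and Cycs, which encodes cytochrome c, at 118 ± 16.2 and 115 ± 6.25. The 7 became 3 without HTG library 2 or HTG library 3.

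**Figure D5:**
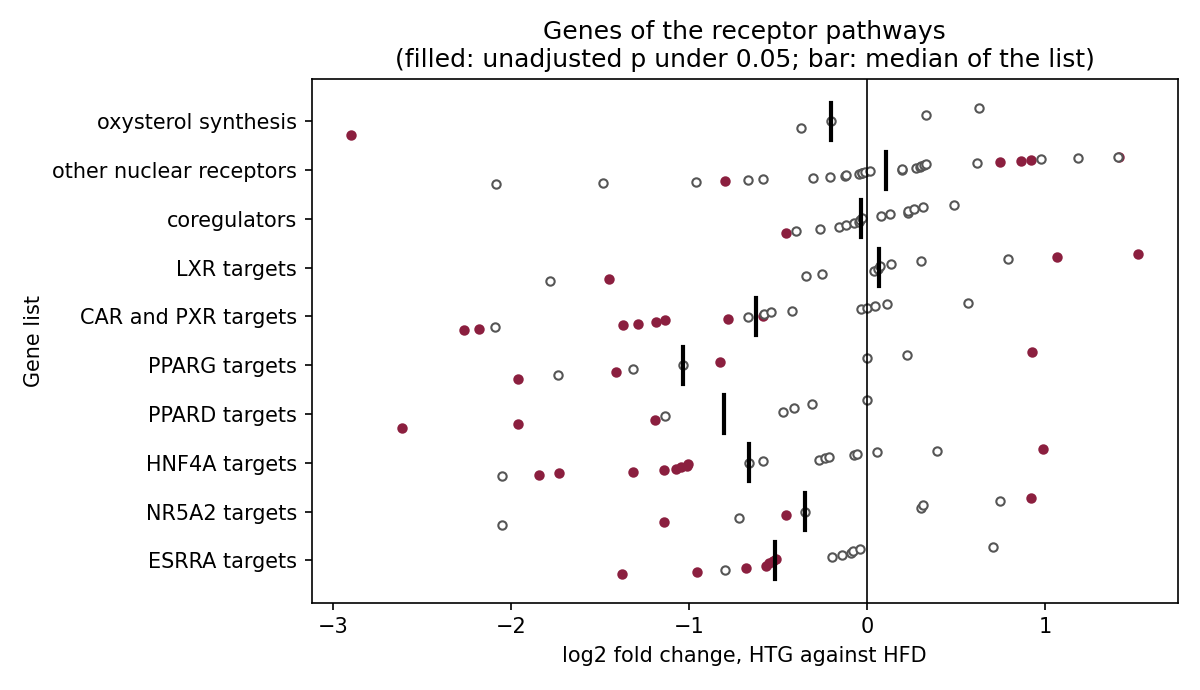
Log2 fold change in the HTG group against the HFD group (x axis) of each tested gene of the 10 lists (y axis), with filled points for an unadjusted p under 0.05 in edgeR's quasi-likelihood test and a bar at each list's median. The medians of the PPARG (-1.03), PPARD (-0.80), HNF4A (-0.67) and CAR and PXR (-0.63) lists lie left of 0, and that of the LXR list is 0.07.

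Of 30 other nuclear receptors tested, 4 were higher (Nr0b2, Rara, Thra and Nr6a1) and 1 was lower (Ppara), and the list median was 0.11. The bile acid receptor gene Nr1h4 was at 163 ± 39.6 CPM in the HFD group and 204 ± 17.8 in the HTG group (log2 fold change 0.32, adjusted p = 0.407 in edgeR), with 0.52 without HFD library 2 and 0.18 without HFD library 3. Without HTG library 2 the 4 became 2, and the 1 became 3 without HFD library 2, 2 without HTG library 2, and 0 without HFD library 3 and without HTG library 1 or 3. Of 16 coregulators, which nuclear receptors recruit to act on chromatin, 1 was lower, the coactivator Ncoa2, at 31.9 ± 5.59 and 23.3 ± 2.91 CPM (log2 fold change -0.45, adjusted p = 0.176 in edgeR), and 0 were higher. The number lower was 0 without HFD library 3 and without HTG library 1 or 2, and 2 without HTG library 3. The coactivators of energy metabolism Ppargc1a and Ppargc1b were at 11.2 ± 1.12 and 8.53 ± 3.4 CPM and at 2.45 ± 0.355 and 3.43 ± 1.67 CPM.

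As a description, the gene whose log2 CPM followed each receptor most closely over the 6 libraries was sought among 14369 genes, with Pearson's r as the measure. For Rxra it was Cd164 (r = 0.9995), for Pparg Fam234a (r = 0.998) and for Hnf4a Arih2 (r = 0.993). For Nr1h2 it was Mrpl47 (r = 0.999), for Nr1h3 Wnt5b (r = 0.994), for Nr1i2 Gm44706 (r = 0.998), for Nr1i3 Gm39157 (r = 0.988), for Ppard Cul7 (r = 0.988), for Nr5a2 Shq1 (r = 0.988) and for Esrra Gm18635 (r = 0.98). With 6 libraries that share their groups and depths and so many genes searched, values this high are found for every receptor. The number of genes with r over 0.95 was 595 for Rxra, 197 for Pparg, 99 for Hnf4a and 9 to 24 for the other receptors.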

How the data were processed

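The authors deposited 1 table with estimated counts, as whole numbers, beside FPKM for each gene and library. The submitters' processing notes name HISAT2, StringTie and SAMtools without versions or roles. Libraries were strand-marked by dUTP, per the study's methods. Whether counting used the strand, and any filter, is not given in the sources used here. Groups came from the sample titles.

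Counts were compared with edgeR 4.0.16 (TMM, filterByExpr, glmQLFit and glmQLFTest, group as the only term) in R 4.3.3, on all genes. FPKM values were described per library, since they compare genes per length. The limit of an empty gene was 3 fragments, or 12 counts. This limit and the counting error of Pparg cover counting error only, whereas the 95% intervals come from edgeR's fit and include the spread between libraries. The design text names 6 rats without tying a library to an animal, so p-values measure the spread between these samples. With 3 libraries against 3, an exact permutation test cannot go below p = 0.1. The edgeR test was also run on simulated counts, with 200 genes changed and all others unchanged. There, 52 of 92 genes changed by 1 on the log2 scale had an unadjusted p under 0.05, and 80 of 92 changed by 2. So did 870 of 17532 unchanged genes. The corresponding numbers at an adjusted p under 0.05 were 3, 49 and 5.

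Members and lists were chosen with earlier results of these data known. Named were the 10 members, from each pathway list its first 2 genes and that with the smallest p, and for each member the closest gene by Pearson's r (mean of at least 50 counts). One gene that this rule names is not reported here. Rxrb, Rxrg, single markers and the further genes past the threshold of a list were named after their values were seen. Alternatives were DESeq2 1.42.0, other filters (none, 10 counts in every library), other scalings, mitochondrial rows left out, counts divided by 4, limma 3.58.1 on log2(FPKM + 0.1) or log2(FPKM + 1), the replicate number as a block, and each library left out. The RefSeq tables at hand are of rat (GRCr8) and were not used here, so no sequence is printed.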

Additional observations from a re-analysis of the deposited data

How the results depend on the processing

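The number of receptors past an adjusted p of 0.05 was 0 in edgeR's quasi-likelihood test, 2 in DESeq2 (Rxra and Pparg), 1 (Rxra) in limma on log2(FPKM + 0.1) and 1 in limma on log2(FPKM + 1). It was 0 in each fit that left out 1 library. At an unadjusted p under 0.05 the number lower was 2, and ranged from 1 to 3 with 1 library left out. The number higher was 0 in all 18 alternatives. The median log2 fold change of the receptors ranged from -0.31 to -0.024 with 1 library left out, the latter without HFD library 2. Rxra kept its direction and an unadjusted p under 0.05 in all 18 alternatives (-0.88 to -0.65). Pparg kept its direction in all 18 (-1.50 to -0.75) and an unadjusted p under 0.05 in 15. The direction of Nr1i2 held in 17, of Nr1i3 in 16 and of Esrra in 13 of 18. With 1 library left out, log2 fold changes of both signs were found for Nr1i2 (-0.44 to 0.15), Nr1i3 (-0.18 to 0.39), Esrra (-0.13 to 0.12), Ch25h (-0.27 to 0.95, at most 15 counts), Cidec (-2.20 to 0.22), Ttr (-0.044 to 0.10) and Cycs (-0.15 to 0.034). Esrra, at -0.01, was also at 0.0051 with counts divided by 4, 0.0011 with library totals and 0.0301 with upper-quartile scaling. Without mitochondrial rows Rxra was at -0.73 and Pparg at -1.03.

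Deviations from the group mean in libraries with the same replicate number correlated at r = -0.08, -0.07 and 0.10. With 3 libraries per group this cannot exclude a batch shared by number. The main fit treated the numbers as names of the samples. With the replicate number as a block, 0 receptors had an adjusted p under 0.05 and 2 had an unadjusted p under 0.05, both lower, with a median of -0.19 over the 10. Over all genes tested, 2 were called at an adjusted p under 0.05 in edgeR, 2104 in DESeq2, 878 in limma on log2(FPKM + 0.1), 822 with counts divided by 4, 684 with at least 10 counts in every library and 0 with the block. Limma on log2(FPKM + 0.1) without its filter called 0. The cause was not tested. Depth limits Pparg most, with about 36.5 fragments in HTG library 3.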
